A study of Arabidopsis thaliana with 6 samples.

Results

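IPS1 (AT3G09922), AT4 (AT5G03545) and PHO2 (AT2G33770) form a small RNA circuit of the phosphate starvation response in Arabidopsis thaliana. They were taken by locus identifier, and all 3 were present among the 33602 genes of the deposited expression table. The series measured polyadenylated RNA from roots of seedlings aged 8 days in 3 groups of 2 libraries each. The first group was the phl2 mutant in the ecotype Col-0 on phosphate-deficient medium, for which the labels name no allele. The second was Col-0 wild type on deficient medium, and the third was Col-0 wild type on medium with sufficient phosphate. PHL2 belongs to the MYB transcription factors and is a relative of PHR1, which is known to activate phosphate starvation genes. No group of phl2 with phosphate was analysed here, so a general difference of the mutant and a difference in its response cannot be told apart.

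IPS1 and AT4 are transcripts that act as target mimics. They bind the microRNA miR399 at a site that is interrupted opposite the centre of the microRNA, so that the microRNA is held but the transcript is not cut. PHO2 mRNA is the target that miR399 cleaves, and it encodes a ubiquitin-conjugating enzyme that marks phosphate transport proteins for breakdown. Under starvation miR399 accumulates and PHO2 mRNA is cut, while IPS1 and AT4 are induced and hold part of the miR399. PHR1 is known to activate IPS1, AT4 and miR399 precursor genes through a promoter element named P1BS, and SPX proteins restrain PHR1 when phosphate is ample.

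The sequences below show how the microRNA and its sites in these transcripts are related, and were read from the RefSeq genome and annotation of build TAIR10.1 with T in place of U. The annotation gives 6 mature miR399 sequences of 21 bases that share a seed, bases 2 to 8, which is in capitals. Since miR399b and the 3′ arm of miR399c are identical, 5 of them are distinct, and they differ from each other outside the seed.
miR399a: tGCCAAAGgagatttgccctg
miR399b and miR399c-3p: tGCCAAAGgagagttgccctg
miR399d: tGCCAAAGgagatttgccccg
miR399e: tGCCAAAGgagatttgcctcg
miR399f: tGCCAAAGgagatttgcccgg

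Matching these sequences to the annotated transcripts gave 7 sites in the 3 genes: 1 in IPS1, 1 in AT4 and 5 in PHO2. They are written 5′ to 3′ on the transcript strand, with capitals for bases that form no Watson-Crick pair with miR399f. In IPS1 and AT4 the site is 24 bases long, and its capitals include 3 central bases with no partner, between the partners of microRNA bases 10 and 11.
IPS1 (chr3:3051224-3051247, plus strand): TTgggcaaCtTCTAtcctttggca
AT4 (chr5:895149-895172, plus strand): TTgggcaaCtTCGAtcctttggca
PHO2 site 1 (chr2:14282106-14282126, minus strand): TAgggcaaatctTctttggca
PHO2 site 2 (chr2:14281973-14281993, minus strand): TAgggcaTatctcctttggca
PHO2 site 3 (chr2:14281884-14281904, minus strand): TTgggcaaatctcctttggca
PHO2 site 4 (chr2:14281827-14281847, minus strand): TcgAgcaaatctcctttggca
PHO2 site 5 (chr2:14281770-14281790, minus strand): TAgAgcaaatctcctttggca

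All 7 sites ended in the same 8 bases, ctttggca, the full complement of microRNA bases 1 to 8. The mimic sites of IPS1 and AT4 differed by 1 substitution, T13G, counted from 1 at the 5′ end of the site with the IPS1 base first, and it lies among the unpaired central bases. Apart from those 3 bases, each mimic site formed 17 Watson-Crick pairs, 3 G:U pairs and 1 mismatch with miR399f. The PHO2 sites are 21 bases long with no central gap, and site 3 paired best, with 19 Watson-Crick pairs, 2 G:U pairs and 0 mismatches. The other PHO2 sites formed 18 or 19 Watson-Crick pairs and had 1 or 2 mismatches.

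IPS1 (chr3:3050989-3051530, plus strand, 542 bases) and AT4 (chr5:894582-895517, plus strand, 936 bases) each have 1 annotated exon. RefSeq places an open reading frame over the mimic site of each, although both RNAs are known to act without a protein. PHO2 (chr2:14277558-14283113, minus strand) has 9 exons with 4176 bases in all, and its 5 sites lie in exon 2, within the 5′ UTR. They fall within 357 bases, between bases 680 and 1036 of the transcript. No annotated exon of another gene lies opposite the exons of these 3 genes (0 bases for each).

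**Figure D1:**
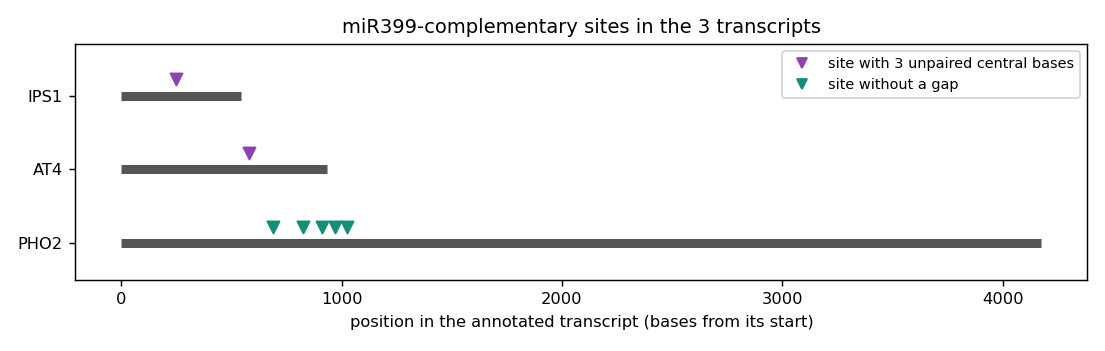
Positions of the miR399-complementary sites along the annotated transcripts of IPS1, AT4 and PHO2, in bases from the transcript start. Grey bars are the transcripts, purple triangles are sites with 3 unpaired central bases and green triangles are sites without a gap. IPS1 and AT4 hold 1 interrupted site each, and PHO2 holds 5 uninterrupted sites between bases 680 and 1036.

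IPS1 and AT4 also shared a run of 44 identical bases, the longest in common, which begins in the mimic site and runs past its 3′ end. It covers bases 249 to 292 of IPS1 and 581 to 624 of AT4, and capitals were not used in it because every base is shared.
IPS1 and AT4, shared run: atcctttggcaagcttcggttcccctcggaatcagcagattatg

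The rarity of such sites was described by scanning the longest annotated transcript of 38074 genes. A mismatch counted as 1 and a G:U pair as 0.5, and a site was kept where its lowest score against any of the miR399 sequences was at most 3. Uninterrupted sites were found in 9 genes (0.0236%), among them the miR399b gene itself, and PHO2 was the only one of the 9 with more than 1. Sites with 3 unpaired central bases were found in 8 genes (0.021%), among them IPS1 and AT4 with a score of 2.0. Such a match is a description of the letters and does not show binding.

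The P1BS element was searched as GNATATNC, which reads the same on both strands, in the 1000 bases before each annotated start. IPS1 and AT4 each held 2 copies and PHO2 held 1. Of 32834 genes, 19.7% held at least 1 copy and 2.7% held at least 2. The copies are shown with the surrounding bases on the gene's strand, in 40 bases each, with the element in capitals.
IPS1, 582 bases before the start (chr3:3050391-3050430, plus strand): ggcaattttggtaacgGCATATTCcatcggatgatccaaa
IPS1, 548 bases before the start (chr3:3050425-3050464, plus strand): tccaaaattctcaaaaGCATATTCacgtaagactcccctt
AT4, 564 bases before the start (chr5:894002-894041, plus strand): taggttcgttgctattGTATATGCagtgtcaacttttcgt
AT4, 26 bases before the start (chr5:894540-894579, plus strand): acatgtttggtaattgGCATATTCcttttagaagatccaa
PHO2, 526 bases before the start (chr2:14283616-14283655, minus strand): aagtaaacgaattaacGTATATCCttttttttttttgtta

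Both IPS1 copies and the nearer AT4 copy had the same 8 letters, GCATATTC. The PHO2 copy stood beside a run of T bases.

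The deposited values are RPKM, reads scaled to gene length and to the reads of the library. The worth of 1 read in each library gave denominators of 9416296 to 12801162 reads. The table as a whole accounted for about 5.32% to 8.87% of these reads, estimated with RefSeq gene lengths, and its part in the results was not tested. Which strand was counted is not given in the sources used here. The phl2 columns were not independent: 17207 of 21237 genes (81.0%) had the same number of reads in either column (relative tolerance 0.001), and replicate 6 was lower in the other 4030. In the pairs of wild-type libraries 8.9% and 9.6% of genes held equal reads. The phl2 columns were therefore averaged and counted as 1 sample. The labels do not say whether the wild-type replicates came from separate plants, so p-values measure only how far these libraries spread, and that spread may be technical. In bulk roots, fewer cells of a type and less RNA per cell cannot be told apart.

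The label of the tissue was checked against lists of root and shoot markers. All 5 root markers, among them the Casparian strip gene CASP1 and the root hair gene COBL9, were above 0 in every library. Their summed level was 4.33 and 4.96 RPKM in the phl2 columns, 8.99 and 9.07 in deficient wild type, against 4.47 and 3.46 in sufficient wild type. The 6 shoot markers, photosynthesis genes such as RBCS1A, summed to 4.07 and 4.71 RPKM in the phl2 columns, 12.59 and 9.95 in deficient wild type, against 18.67 and 17.31 in sufficient wild type, with none at 0. The shoot sum was thus lowest in phl2 and highest with phosphate in deposited RPKM, and its part in the results below was not tested. RBCS1A, RCA and PSBR kept this order in every library. CAB3 did not, at 1.564 and 1.621 RPKM in deficient against 1.249 and 0.883 in sufficient wild type. LHCB1.1 overlapped between the wild-type groups, and GAPA between phl2 and deficient wild type. The shoot sum exceeded the root sum in every wild-type library and lay below it in both phl2 columns.

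By deposited values IPS1 was almost absent with phosphate and abundant without it. The phl2 columns held 5.77 and 6.66 RPKM, deficient wild type 11.6 and 8.64 RPKM, and sufficient wild type 0.196 and 0 RPKM. Every deficient library stood far above the sufficient ones, and the phl2 columns lay below both deficient wild-type libraries. Behind these values were 40 and 40 reads in the phl2 columns, 63 and 51 in deficient wild type, against 1 and 0 in sufficient wild type. In the library with 0 reads the limit that a count of 0 allows (3 reads) is 0.554 RPKM.

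AT4 had the same order of groups at a higher level. The phl2 columns held 14.9 and 17.2 RPKM, deficient wild type 25.1 and 23.7 RPKM, and sufficient wild type 1.83 and 2.30 RPKM. AT4 was detected in every library. Its reads numbered 133 and 132 in the phl2 columns, 175 and 179 in deficient wild type, against 12 and 16 in sufficient wild type.

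PHO2 had the opposite order with phosphate. The phl2 columns held 1.45 and 1.58 RPKM, deficient wild type 3.47 and 3.11 RPKM, and sufficient wild type 6.08 and 4.61 RPKM. It was highest with phosphate and lowest in phl2. The share of all genes whose groups separate like those of these 3 genes was not counted. The median of all tested genes was also lower in phl2 than in deficient wild type (-0.48 on the log2 scale as deposited). Its reads numbered 76 and 72 in the phl2 columns, 143 and 139 in deficient wild type, against 235 and 189 in sufficient wild type.

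**Figure D2:**
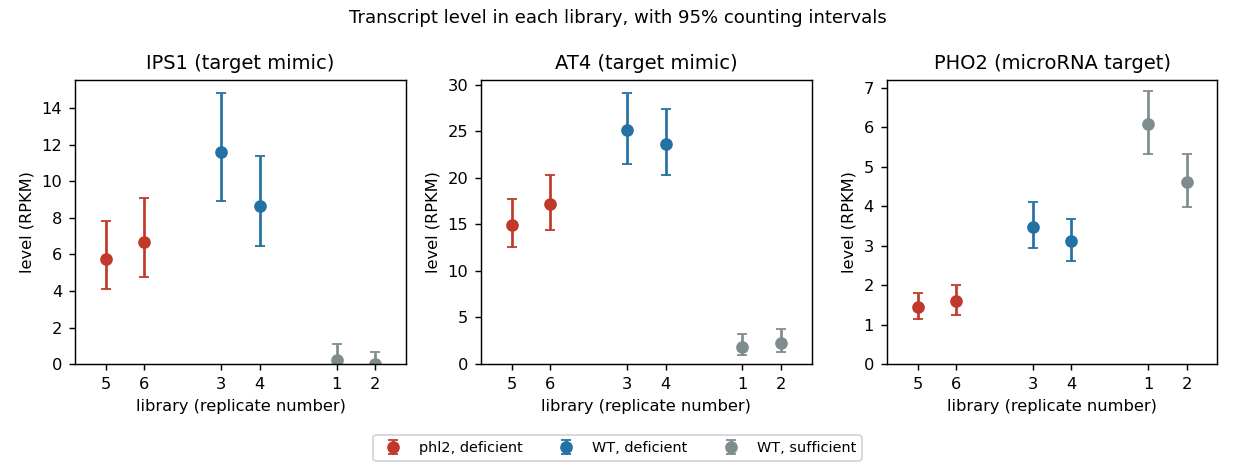
Level of IPS1, AT4 and PHO2 in each library in RPKM, with exact 95% Poisson intervals that cover counting error only. Red points are the phl2 columns (5 and 6, which share reads), blue points deficient wild type (3 and 4) and grey points sufficient wild type (1 and 2). IPS1 and AT4 were highest in deficient wild type, and PHO2 was highest in sufficient wild type.

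Ranks were taken by deposited RPKM among all genes above 0 in a library. They hold for these values only, which accounted for about 5.32% to 8.87% of the reads. AT4 stood near the top in every deficient library. It ranked 226 and 197 from the top in the phl2 columns, 127 and 137 in deficient wild type, against 5497 and 3578 in sufficient wild type. IPS1 ranked 893 and 841 in the phl2 columns and 528 and 786 in deficient wild type. In sufficient wild type it ranked 17659 in the library with 1 read. PHO2 ranked 5025 and 5181 in the phl2 columns, 3628 and 3720 in deficient wild type, against 1156 and 1536 in sufficient wild type. Its rank was thus lower in deficient than in sufficient roots in each of these libraries.

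Changes were tested with limma on log2(RPKM + 1) over the 11463 genes that reached 1 RPKM in 2 or more of the 6 columns. All 3 genes passed this filter, IPS1 through its deficient libraries alone. Two-sided p-values were adjusted over all tested genes by the Benjamini-Hochberg method, and a gene was called at an adjusted p under 0.05. The test takes the spread of the single phl2 sample to be that of wild type, since it cannot be measured. The median of all tested genes was itself shifted between groups, so each change is given a second time with libraries rescaled by the median of ratios (each gene over its geometric mean across samples). The median change of all tested genes on the deposited scale was -0.48 for deficient phl2 against deficient wild type, 0.33 for deficient against sufficient wild type and -0.14 for deficient phl2 against sufficient wild type. After rescaling these medians were -0.0092, 0.0046 and 0.0031.

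In wild type, deficiency raised both mimics and lowered PHO2. IPS1 averaged 10.1 ± 2.08 RPKM in deficient and 0.098 ± 0.139 in sufficient wild type (SD, n = 2 each). The log2 difference was 3.33 ± 0.19 (SE; adjusted p = 3.28e-05, limma) as deposited and 3.002 ± 0.15 (adjusted p = 0.00025, limma) after rescaling. It was the 9th highest of the 11463 differences on either scale. Since IPS1 passed the filter through its deficient libraries alone, this rank and the test are not independent of the filter. By pooled reads the ratio was 105.8, with an exact 95% interval of 18.6 to 4215 for counting error only, since the lower group held 1 read.

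AT4 averaged 24.4 ± 1.02 RPKM in deficient and 2.07 ± 0.33 in sufficient wild type (SD, n = 2 each). Its log2 difference was 3.05 ± 0.14 (SE; adjusted p = 1.56e-05, limma), the 12th highest, and 2.603 ± 0.16 (adjusted p = 0.00043, limma), the 15th highest, after rescaling. The ratio of pooled reads was 11.7 (95% interval 7.98 to 17.9), so the fold of AT4 was known far more closely than that of IPS1.

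PHO2 averaged 3.29 ± 0.26 RPKM in deficient and 5.35 ± 1.04 in sufficient wild type (SD, n = 2 each), a ratio of pooled reads of 0.617 (95% interval 0.529 to 0.719). It fell by 0.56 ± 0.17 on the log2 scale (adjusted p = 0.039, limma) as deposited. After rescaling it fell by 0.94 ± 0.11 (adjusted p = 0.0037, limma). On the deposited scale the call was lost without replicate 1 (-0.39, adjusted p = 0.13), without replicate 3 (-0.62, adjusted p = 0.16) or without replicate 4 (-0.49, adjusted p = 0.18), all by limma.

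Of the 3 genes, 2 were called higher and 1 lower in this comparison, with IPS1 counted although it passed the filter through its deficient libraries alone. The background was wide: 28% of tested genes were called higher and 4.45% lower as deposited, and 8.1% higher and 11.7% lower after rescaling. The counts of the 3 genes were the same on both scales. The count of genes called higher moved to 1189, 635 and 1057 without replicates 2, 3 and 4, against 3210 with all libraries. The count called lower moved to 300, 187 and 208 in the same fits, against 510.

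**Figure D3:**
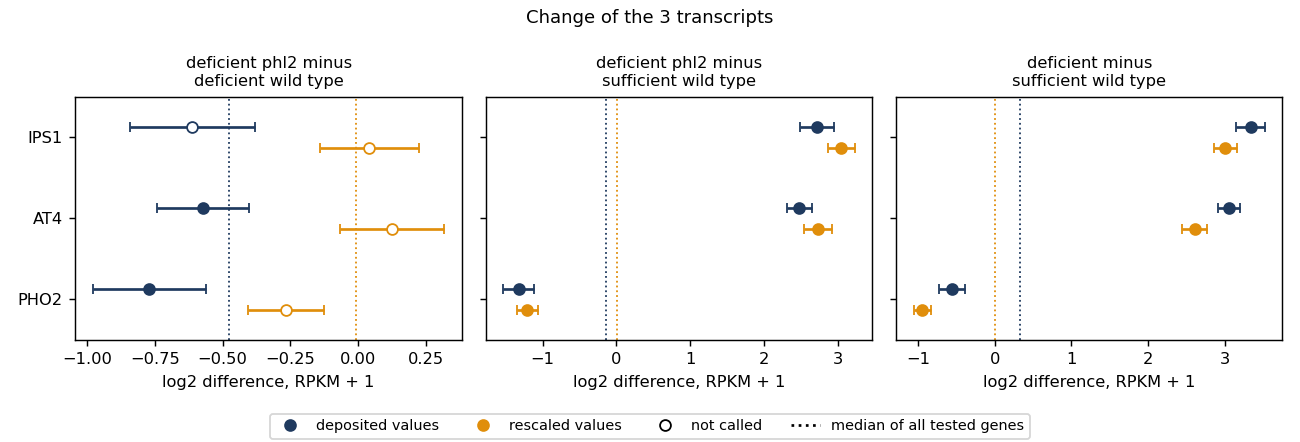
Log2 differences of IPS1, AT4 and PHO2 on the log2(RPKM + 1) scale, with standard errors from limma, for the 3 comparisons. Blue is the deposited scale and orange the rescaled one, filled points passed an adjusted p under 0.05, and dotted lines mark the median of all tested genes on each scale. In the comparison of phl2 with deficient wild type, the deposited values of IPS1 (-0.61), AT4 (-0.57) and PHO2 (-0.77) stand against a median of -0.48 over all tested genes, and no rescaled value was called.

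Against deficient wild type, all 3 transcripts were at lower deposited levels in phl2. The phl2 level was 61.4% of that of deficient wild type for IPS1, 65.8% for AT4 and 46.0% for PHO2. IPS1 was at -0.61 ± 0.23 on the log2 scale (SE; adjusted p = 0.074, limma) and did not pass the test. AT4 fell by 0.57 ± 0.17 (adjusted p = 0.049, limma) and PHO2 by 0.77 ± 0.21 (adjusted p = 0.044, limma), each close to the threshold.

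After rescaling, none of the 3 genes was called or had an unadjusted p under 0.05 in limma, and the values of both mimics changed sign. Of all 11463 tested genes 2169 had such an unadjusted p. IPS1 was at 0.04 ± 0.18 (SE; adjusted p = 0.93, limma), AT4 at 0.13 ± 0.19 (adjusted p = 0.77, limma) and PHO2 at -0.26 ± 0.14 (adjusted p = 0.36, limma). The rescaled level of IPS1 was 8.02 in phl2 and 7.80 ± 1.03 in deficient wild type (SD, n = 2), and that of AT4 was 20.7 in phl2 and 18.9 ± 0.61 in deficient wild type. For PHO2 the rescaled level was 1.96 in phl2 and 2.55 ± 0.009 in deficient wild type, or 76.7% of it. A direction of the mimics in phl2 relative to the other genes was therefore not shown.

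Of the tested genes 0.288% were called higher and 19.5% lower in phl2 as deposited, so the 2 of 3 genes called lower stand beside a background in the same direction. After rescaling 0.0698% were called higher and 0.0174% lower. The difference of IPS1 exceeded (was less negative or higher than) that of 30.04% of tested genes, that of AT4 35.6% and that of PHO2 12.3%. The calls of AT4 and PHO2 were lost without replicate 3 (-0.53 and -0.71), without replicate 4 (-0.61 and -0.83) or without replicate 5 (-0.48 and -0.73), and IPS1 was called lower without replicate 6 (-0.70, adjusted p = 0.044, limma). In the same fits 4, 3 and 9 genes in all were called lower without replicates 3, 4 and 5 and 4272 without replicate 6, against 2230 with all libraries.

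Compared with sufficient wild type, deficient phl2 roots showed the starvation pattern of all 3 transcripts. This comparison shares its control libraries with the one in wild type, and its phl2 sample with the one above. IPS1 again stands among the tested genes through its deficient libraries alone. IPS1 rose by 2.72 ± 0.23 on the log2 scale (SE; adjusted p = 0.00075, limma) and by 3.04 ± 0.18 (adjusted p = 0.00087, limma) after rescaling. AT4 rose by 2.48 ± 0.17 (adjusted p = 0.00026, limma) and by 2.73 ± 0.19 (adjusted p = 0.0014, limma). PHO2 fell by 1.32 ± 0.21 (adjusted p = 0.0088, limma) and, after rescaling, by 1.21 ± 0.14 (adjusted p = 0.0064, limma). Of the tested genes 2.54% were called higher and 5.22% lower as deposited, and 5.18% higher and 5.15% lower after rescaling; 2 of the 3 genes were called higher and 1 lower on both scales. With all libraries 291 genes were called higher and 598 lower as deposited. Without replicate 3 these counts were 193 and 315, and without replicate 4 they were 190 and 313. Without replicate 1 they were 204 and 246.

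Expressed as a part of the wild-type rise, the mimics in phl2 stood between the wild-type groups on the deposited scale. The difference between deficient phl2 and sufficient wild type was 61.1% of that between deficient and sufficient wild type for IPS1 and 62.7% for AT4, in RPKM. After rescaling these shares were 102.9% and 110.9%. Rescaling by the median of ratios thus moved the mimic levels of phl2 from below to slightly above those of deficient wild type. With quantile normalization both stayed below, at log2 differences of -0.24 for IPS1 and -0.38 for AT4, neither called.

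Ratios between the 3 transcripts within a library do not depend on how libraries are scaled. The ratio of IPS1 to PHO2 was 3.98 and 4.21 in the phl2 columns, 3.34 and 2.78 in deficient wild type, against 0.0322 and 0 in sufficient wild type. The ratio of AT4 to PHO2 was 10.3 and 10.8 in the phl2 columns, 7.22 and 7.60 in deficient wild type, against 0.301 and 0.500 in sufficient wild type. Both ratios were highest in phl2, and no group overlapped another.

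**Figure D4:**
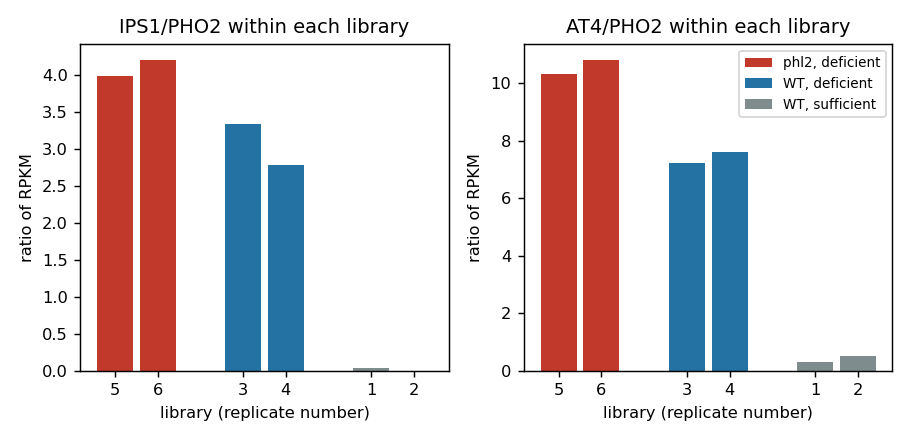
Ratio of IPS1 to PHO2 and of AT4 to PHO2 (RPKM over RPKM) within each library. Red bars are the phl2 columns, blue bars deficient wild type and grey bars sufficient wild type. The ratios were at least 2.78 and 7.22 in every deficient library, against at most 0.0322 and 0.500 in sufficient wild type.

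Counting error was set beside these ratios with reads, in which gene length cancels. Between phl2 replicate 5 and the deficient wild-type libraries the IPS1 to PHO2 ratio differed by a factor of 1.30 (95% interval 0.81 to 2.06) and the AT4 to PHO2 ratio by a factor of 1.39 (95% interval 0.999 to 1.95). Both intervals include 1. With replicate 6 in place of replicate 5 the factors were 1.37 (0.86 to 2.18) and 1.46 (1.04 to 2.06), the second of which excludes 1. Between deficient and sufficient wild type the AT4 to PHO2 ratio differed by a factor of 19.0 (12.5 to 29.8). These intervals compare the libraries and leave out the spread between replicates.

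AT4 and IPS1 kept nearly the same proportion in all deficient libraries. The ratio of AT4 to IPS1 was 2.59 and 2.57 in the phl2 columns and 2.17 and 2.74 in deficient wild type. The phl2 values lay within the range of the wild-type ones, and the factor between phl2 replicate 5 and deficient wild type was 1.07 (95% interval 0.70 to 1.66). In sufficient wild type 1 IPS1 read stood beside 28 reads of AT4, so that ratio is poorly known there.

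The precursors of miR399 were barely present in these libraries of polyadenylated RNA. Of 9 precursor genes (MIR399A to MIR399F, MIR827, MIR2111A and MIR2111B), 0 passed the filter and 5 were at 0 in every library. MIR399B was at 0.738 RPKM in deficient wild type replicate 3, the worth of 1 read, and at 0 elsewhere. MIR399D was at 0.919 RPKM in deficient wild type replicate 4, also 1 read, and at 0 elsewhere. MIR2111A was at 0.586 RPKM in deficient wild type replicate 3 and at 0 elsewhere. MIR827, with the highest value of the list, was at 0.962 RPKM in sufficient wild type replicate 2 and at 0 elsewhere. The limit that a count of 0 allows in the phl2 columns was 1.74 and 2.01 RPKM for MIR399B, above the wild-type value, so no difference in these precursors was detectable at this depth. Mature microRNAs are not measured by such libraries.

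The regulators of the mimics were listed as PHR1, PHL1, PHL2 and SPX1 to SPX4, and 6 of the 7 passed the filter. SPX genes encode phosphate sensors that bind PHR1. In deficient against sufficient wild type 3 of 6 were called higher on both scales, with SPX1 at 3.43 ± 0.16, SPX2 at 1.55 ± 0.16 and SPX3 at 3.44 ± 0.20 (log2 ± SE), and 0 were called lower. SPX1, SPX2 and SPX3 were below 1 RPKM in both sufficient libraries (at most 0.489, 0.860 and 0.328). They therefore passed the filter through deficient libraries alone, and their calls are not independent of it. Over all tested genes 28% were called higher as deposited and 8.1% after rescaling. PHR1 was at 0.31 ± 0.19, PHL1 at 0.36 ± 0.16 and PHL2 at 0.09 ± 0.18, and none of these passed; after rescaling PHR1 was at -0.0012 and PHL2 at -0.24. The list's median was 0.95, against 0.33 for all tested genes.

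In deficient phl2 against deficient wild type, 2 of the 6 regulators were called lower as deposited and 0 after rescaling, where 0 of 6 had an unadjusted p under 0.05 in limma. Of all 11463 tested genes 2169 had such an unadjusted p after rescaling. Over all tested genes 19.5% were called lower as deposited and 0.0174% after rescaling. Those called as deposited were SPX1 at -0.70 ± 0.20 (adjusted p = 0.046, limma) and SPX3 at -0.80 ± 0.24 (adjusted p = 0.049, limma). PHL2 itself was at 1.04 and 0.934 RPKM in phl2, at 2.14 and 2.24 RPKM in deficient wild type, and at 1.65 and 2.37 RPKM in sufficient wild type. Its deposited level in phl2 was below all wild-type libraries but above 0, and its log2 difference from deficient wild type was -0.68 ± 0.22 (adjusted p = 0.055, limma) as deposited and -0.25 ± 0.24 (adjusted p = 0.62, limma) after rescaling. Where the mutation lies in the gene is not given in the labels, so these reads check the genotype only in part. The list's median was -0.63, against -0.48 for all tested genes.

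The partners of PHO2 were PHO1, which loads phosphate into the xylem, PHF1, which helps phosphate transporters leave the endoplasmic reticulum, and the uptake transporters PHT1;1 to PHT1;4. All 6 passed the filter. In wild type 5 of 6 were called higher under deficiency on both scales, from PHT1;3 at 1.01 ± 0.14 to PHT1;4 at 2.65 ± 0.17, and PHO1 did not pass (0.23 ± 0.17 as deposited, -0.19 ± 0.12 after rescaling). PHT1;3 and PHT1;4 were below 1 RPKM in both sufficient libraries and passed the filter through deficient libraries alone. The share called higher over all tested genes was 28% as deposited and 8.1% after rescaling. PHT1;1 was at 9.20 and 10.6 RPKM in the phl2 columns, 29.6 and 25.1 in deficient wild type, against 6.08 and 4.32 in sufficient wild type. By these deposited values the phl2 level was nearer to sufficient than to deficient wild type, with 21.3% of the wild-type rise kept. Rescaled libraries placed it near the middle, with 46.1% of the rise kept. The rescaled levels of PHT1;1 were 12.8 in phl2, 21.2 ± 0.86 in deficient and 5.66 ± 0.65 in sufficient wild type (SD, n = 2 for each wild-type group).

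In deficient phl2 against deficient wild type, 5 of the 6 partners were called lower as deposited and 0 after rescaling, where 3 of 6 had an unadjusted p under 0.05 in limma. Of all 11463 tested genes 2169 had such an unadjusted p after rescaling. The share called lower over all tested genes was 19.5% as deposited and 0.0174% after rescaling. None of the listed genes was called lower without replicate 3, 4 or 5 (0 each, against 9 with all libraries). PHT1;2 was at -1.47 ± 0.22 (adjusted p = 0.040, limma) and PHT1;1 at -1.37 ± 0.20 (adjusted p = 0.040, limma), the 17th and 22nd lowest of all tested genes. After rescaling they were at -0.79 ± 0.16 (adjusted p = 0.14, limma) and -0.68 ± 0.15 (adjusted p = 0.14, limma). PHT1;1 and PHT1;2 are near-identical copies, so reads may have been shared between them. PHF1, which was not called, was at -0.58 ± 0.19 as deposited and at 0.01 ± 0.16 after rescaling, close to the mimics. The list's median was -1.03, against -0.48 for all tested genes.

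**Figure D5:**
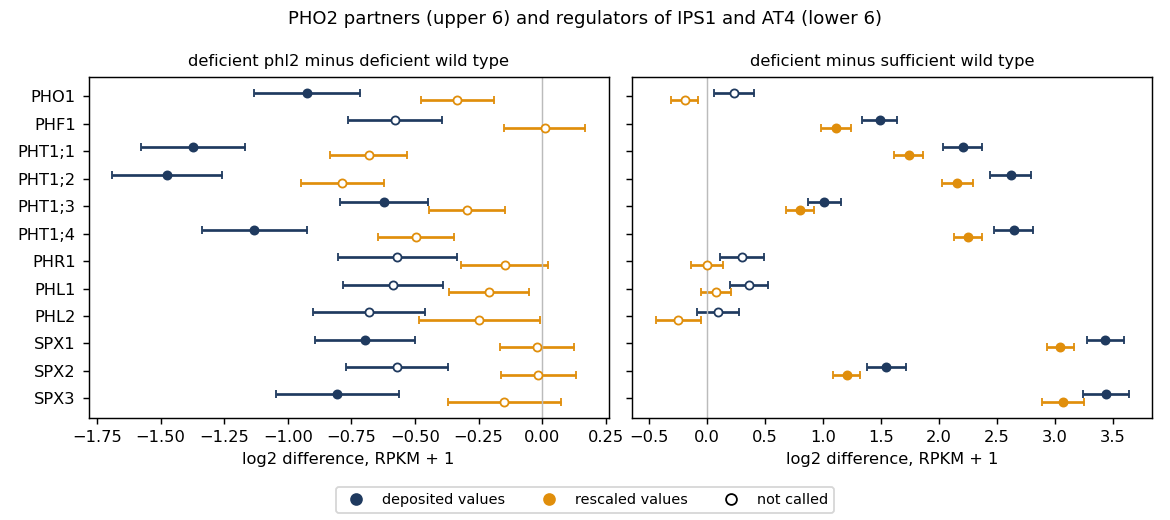
Log2 differences of the 6 PHO2 partners and the 6 tested regulators on the log2(RPKM + 1) scale, with standard errors from limma. The left panel sets deficient phl2 against deficient wild type and the right panel deficient against sufficient wild type, with blue for deposited and orange for rescaled values and filled points for called genes. On the left the PHT1 transporters PHT1;1, PHT1;2 and PHT1;4 lie at -1.37, -1.47 and -1.13 as deposited, and no rescaled value was called.

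Other ubiquitin genes and the microRNA machinery were also listed. NLA, a ubiquitin ligase that also acts on PHT1 proteins and is the target of miR827, was listed at 0 and 0 RPKM in the phl2 columns, 0.591 and 0.484 in deficient wild type, against 0.910 and 0.528 in sufficient wild type, below the filter. UBC23 and PFU1, relatives of PHO2, were called higher in deficient against sufficient wild type as deposited (0.52 ± 0.17 and 0.59 ± 0.16), and neither after rescaling. PFU1 passed the filter through its deficient wild-type libraries alone. Among all tested genes 28% were called higher as deposited and 8.1% after rescaling. Neither UBC23 nor PFU1 was called in deficient phl2 against deficient wild type (-0.50 ± 0.21 and -0.57 ± 0.20). Relative to sufficient wild type, PHO2 thus had the opposite sign from these relatives under deficiency.

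Of the microRNA machinery (DCL1, HYL1, SE, HEN1 and AGO1), 4 of 5 passed the filter. AGO1, which carries the microRNA, was the only one called higher in deficient against sufficient wild type (0.56 ± 0.17), and not after rescaling. Among all tested genes 28% were called higher as deposited and 8.1% after rescaling. In deficient phl2 against deficient wild type HYL1, a partner of the processing enzyme DCL1, was called lower at -1.05 ± 0.22 (adjusted p = 0.040, limma) and AGO1 at -0.81 ± 0.21 (adjusted p = 0.043, limma). Neither was called after rescaling, where HYL1 was at -0.59 ± 0.16 (adjusted p = 0.17, limma). Among all tested genes 19.5% were called lower as deposited and 0.0174% after rescaling.

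Genes with the most similar profile were taken as the 5 tested genes at the smallest Euclidean distance over the 5 samples, after centring each log2(RPKM + 1) profile on its mean. For IPS1 they were SPX1 (distance 0.20), TI1 (0.219), MAM1 (0.411), AT4 (0.498) and SPX3 (0.501). For AT4 they were MAM1 (0.174), LSU2 (0.234), GAI (0.362), TI1 (0.373) and BCAT4 (0.392). MAM1 and BCAT4 make glucosinolate precursors from methionine, TI1 is a trypsin inhibitor, LSU2 is known from sulphur deficiency, and GAI is a repressor of gibberellin signalling. AT4 was thus among the nearest genes of IPS1, while IPS1 was not among those of AT4.

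For PHO2 the nearest profiles were those of CP5 (0.0688), the aquaporin PIP2A (0.0812), AT1G48690 (0.0993), IGMT3 (0.104) and MLP34 (0.121). The distance is not scaled to the size of a profile's changes, which were smaller for PHO2 than for the mimics. Distances of different members are therefore not comparable. CP5 was at 3.10 RPKM in phl2, 6.19 and 5.30 in deficient wild type, against 10.1 and 7.80 in sufficient wild type. None of the 5 is a listed partner of PHO2 or held a miR399 site in the scan.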

How the data were processed

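RPKM values of polyadenylated root RNA were deposited by the authors as 1 table with 6 columns; TopHat2, DESeq2 and the build TAIR10 are named in the submitters' processing notes without versions or roles, and the libraries were strand-specific per the labels' protocols. No source used here gives the counter or its strand setting. The members and gene lists were chosen with earlier results of these data known. Named genes are the 3 members, the listed pathway genes and the 5 nearest profiles of each member. Root and shoot markers and the transcripts returned by the site scan are also named.

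Group means of log2(RPKM + 1) in 5 samples (2 residual degrees of freedom) were compared with limma 3.58.1 (R 4.3.3) and a variance trend, over all 11463 tested genes; a pseudocount of 1 understates the change of low genes. The code was tested on simulated data. Reads behind the members' values were whole to within 0.03 read with the worth of 1 read per library and gene lengths of 542 (IPS1), 695 (AT4) and 4103 (PHO2) bases. The RefSeq lengths are 542, 936 and 4176 bases. Intervals on reads are exact at 95% and, as PCR reads are not independent molecules, cover counting error only. Sites and promoters were read from TAIR10.1, whose coordinates are 1-based; the table gives none. Alternatives left out each replicate, changed the pseudocount to 0.1, dropped the filter, rescaled or quantile-normalized the libraries, used both phl2 columns as replicates, or dropped the variance trend.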

Additional observations from a re-analysis of the deposited data

How the results depend on the processing

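No paired analysis was possible because each replicate number occurs in 1 group. Of 108 recomputed differences of the 3 genes, 82 kept their direction and side of the threshold. The rises of IPS1 and AT4 in deficient wild type did so under all 12 alternatives each.

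In phl2 against deficient wild type, rescaling turned IPS1 to 0.041 and AT4 to 0.13, and left PHO2 at -0.26, not called. Calls were also lost with a pseudocount of 0.1 (AT4 -0.60, PHO2 -1.07), without the filter (-0.57 and -0.77), with quantile normalization (-0.38 and -0.28) and, for AT4, without the variance trend (-0.57). IPS1 was called with both phl2 columns as replicates (-0.61). Leaving out 1 replicate gave -0.80 to -0.42 for IPS1, -0.67 to -0.48 for AT4 and -0.83 to -0.71 for PHO2. In deficient against sufficient wild type the PHO2 call was lost with a pseudocount of 0.1 (-0.67) and without the filter (-0.56), and its range without 1 replicate was -0.72 to -0.39. Without the filter, IPS1 (2.72), AT4 (2.48) and PHO2 (-1.32) were not called in phl2 against sufficient wild type; the cause was not tested.

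Directions that changed among listed genes, none of them called, were PHF1 in phl2 against deficient wild type (0.0088 rescaled); in wild type PHR1 (-0.0012 rescaled, -0.019 quantile), PHL2 (-0.24, -0.23, and -0.078 to 0.27 without 1 replicate), PHO1 (-0.19, -0.047) and HYL1 (-0.0032 rescaled); and in phl2 against sufficient wild type UBC23 (-0.10 to 0.14) and PFU1 (-0.13 to 0.17) without 1 replicate. The genes called lower in phl2 against deficient wild type numbered 2230, and 2 after rescaling, 5 with quantile normalization, 30 with a pseudocount of 0.1, 7448 with both columns as replicates and 0 without the filter, where limma gave 6576 an unadjusted p under 0.05. Those called higher numbered 33, and 0 to 188 under the alternatives. In deficient against sufficient wild type 3210 were called higher (928 rescaled, 1086 quantile, 221 without the filter, 5030 with both columns) and 510 lower (1342, 1193 and 57 in the first 3 of these). In phl2 against sufficient wild type 291 were called higher (594, 546, 2 and 864) and 598 lower (0 without the filter, 2207 with both columns). Depth limits IPS1 with phosphate (1 and 0 reads) and the precursors.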

Other observations

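The scan for miR399-complementary letters returned transcripts outside the circuit, given here as values with no claim of binding. Among uninterrupted sites, RH39, an RNA helicase, had a score of 2.0 and was at 0.726 and 0.840 RPKM in phl2, at 1.16 and 1.196 RPKM in deficient wild type, and at 0.790 and 0.512 RPKM in sufficient wild type. LINC1, a protein of the nuclear lamina, had a score of 3.0 and was at 2.45 and 2.81 RPKM in phl2, at 4.58 and 4.52 RPKM in deficient wild type, and at 4.05 and 2.84 RPKM in sufficient wild type. A/N-InvC (3.0) was at 1.05 and 1.21 RPKM in phl2, 2.51 and 2.99 in deficient and 2.25 and 1.42 in sufficient wild type. CYP705A30 (3.0) was highest in phl2, at 1.95 and 2.25 RPKM, against 1.73 and 1.55 in deficient and 1.36 and 1.16 in sufficient wild type. PHT1;7 (3.0) was at 0.0949 and 0.110 RPKM in phl2, 0.484 and 0.335 in deficient and 0 and 0 in sufficient wild type. AT1G78500 and AT3G16020 (3.0) were at most at 0.0433 RPKM. MIR399B (3.0) is given above.

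Among transcripts with 3 unpaired central bases, AT2G08820 matched as well as IPS1 and AT4 (score 2.0) and was not in the table used here. The other 5, AT1G21930, AT1G60310, AT5G20060, AT5G32592 and ULI3, had a score of 3.0, and their highest value in any library was 1.31 RPKM.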
